A study of Homo sapiens with 6 samples.

Results

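The 5 promoter intervals described here carry a clear peak of FLAG-tagged wild-type ZNF335 and no peak of the bloto form of the protein. They belong to 6 genes: HACD2 (older symbol PTPLB), PA2G4, PDCL3, TAPBPL, and the neighbouring genes HECTD3 and UROD, whose starts face away from each other. The intervals were given as hg19 coordinates, and every peak overlapping them by at least 1 bp was taken. This gave 6 of the 634 peaks in the WT list, with 2 of them at HECTD3-UROD and 1 at each other interval. None of the 174 peaks in the bloto list lay in the intervals (0 of 5), nor did the 1 peak of the control list (0 of 5). The members were chosen by measured values, the strength of the WT peak and the lack of a bloto peak, so both are given as a description and were not tested.

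The cells were Jurkat T-REx, a human T cell leukaemia line with a repressor that lets an introduced gene be switched on by doxycycline. The WT line expressed ZNF335 with a 3xFLAG tag, the bloto line the same tagged protein with the substitution R1092W, and the control line no tagged protein. The labels' protocols, worded alike for all samples, give overnight doxycycline and chromatin cut by sonication and MNase. ChIP used the anti-FLAG M2 antibody, so the endogenous untagged ZNF335 was not read. The tagged lines were clonal transfectants, and each condition has 1 ChIP library and 1 input library, so the clone, the library and the substitution cannot be told apart in any difference below.

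ZNF335, known as Zfp335 in mouse, is a zinc finger transcription factor that binds many gene promoters and is part of complexes that methylate histone H3. The bloto allele was found in mice with few naive T cells. The genes of the 5 intervals act in different processes. HACD2 is a dehydratase of the endoplasmic reticulum that acts in the elongation of very long chain fatty acids. PA2G4, also called EBP1, is a growth-regulating protein that binds RNA and ribosomes. PDCL3 is a phosducin-like partner of the chaperonin that folds actin and tubulin. TAPBPL, also called TAPBPR, edits the peptides loaded on MHC class I molecules. HECTD3 is a ubiquitin ligase of the HECT family, and UROD is the uroporphyrinogen decarboxylase of heme synthesis.

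The promoters are printed to show which short words they do and do not have in common. All 6 genes matched the RefSeq promoter table, with 8 windows on GRCh38.p14, 2 each for HACD2 and TAPBPL. The table's build differs from that of the peaks, so whether a window lies under a peak was not determined. Each window is printed 5′ to 3′ on the gene's strand, from 250 bases before the annotated start to 30 after it. Capitals mark matches, on either strand, to the letters searched: GGGCGG (the GC box), AAGATGGC (YY1), GCGCANGCG (NRF1), CCAAT (the CCAAT box), CCGGAAG (ETS factors), ACTACAATT (part of the ZNF143 element), and CAGCTG and CACGTG (both E-boxes). The binding letters of ZNF335 itself were not searched, since no source used here gives them. The second HACD2 window is not printed.
HACD2 chr3:123585024-123585303 (minus strand): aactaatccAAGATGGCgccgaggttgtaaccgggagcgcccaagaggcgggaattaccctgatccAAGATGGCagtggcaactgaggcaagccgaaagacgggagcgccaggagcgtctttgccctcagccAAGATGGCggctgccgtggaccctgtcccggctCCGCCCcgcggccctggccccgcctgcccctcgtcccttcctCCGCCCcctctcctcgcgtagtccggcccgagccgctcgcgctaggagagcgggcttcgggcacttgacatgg
TAPBPL chr12:6451399-6451678 (plus strand): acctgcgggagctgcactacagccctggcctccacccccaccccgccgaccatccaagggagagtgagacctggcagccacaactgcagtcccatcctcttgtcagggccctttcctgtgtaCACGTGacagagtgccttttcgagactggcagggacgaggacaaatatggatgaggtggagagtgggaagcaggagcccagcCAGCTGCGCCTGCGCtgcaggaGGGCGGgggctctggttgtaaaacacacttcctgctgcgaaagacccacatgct
TAPBPL second start chr12:6451792-6452071 (plus strand): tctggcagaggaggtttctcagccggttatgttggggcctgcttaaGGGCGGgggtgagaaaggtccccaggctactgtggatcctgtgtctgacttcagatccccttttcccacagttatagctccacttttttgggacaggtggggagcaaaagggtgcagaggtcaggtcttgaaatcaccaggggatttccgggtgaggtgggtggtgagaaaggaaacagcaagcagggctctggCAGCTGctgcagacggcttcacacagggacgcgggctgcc
PDCL3 chr2:100562743-100563022 (plus strand): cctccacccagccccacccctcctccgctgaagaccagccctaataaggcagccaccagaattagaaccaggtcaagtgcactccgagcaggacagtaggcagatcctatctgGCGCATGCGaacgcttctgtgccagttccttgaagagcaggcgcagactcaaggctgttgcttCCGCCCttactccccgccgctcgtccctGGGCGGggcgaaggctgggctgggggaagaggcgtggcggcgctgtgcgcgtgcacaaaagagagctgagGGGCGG
PA2G4 chr12:56104309-56104588 (plus strand): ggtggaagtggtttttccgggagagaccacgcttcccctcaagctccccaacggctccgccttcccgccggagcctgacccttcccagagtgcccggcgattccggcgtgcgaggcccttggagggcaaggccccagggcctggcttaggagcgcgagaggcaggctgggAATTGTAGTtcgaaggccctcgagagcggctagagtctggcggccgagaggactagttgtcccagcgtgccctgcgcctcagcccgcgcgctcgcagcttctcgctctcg
HECTD3 chr1:45011295-45011574 (minus strand): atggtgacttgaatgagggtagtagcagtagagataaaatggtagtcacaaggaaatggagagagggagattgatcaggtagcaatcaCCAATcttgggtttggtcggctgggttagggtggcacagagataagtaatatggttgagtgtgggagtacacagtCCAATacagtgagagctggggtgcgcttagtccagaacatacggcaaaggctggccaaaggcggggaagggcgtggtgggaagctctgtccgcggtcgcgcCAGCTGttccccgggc
UROD chr1:45012004-45012283 (plus strand): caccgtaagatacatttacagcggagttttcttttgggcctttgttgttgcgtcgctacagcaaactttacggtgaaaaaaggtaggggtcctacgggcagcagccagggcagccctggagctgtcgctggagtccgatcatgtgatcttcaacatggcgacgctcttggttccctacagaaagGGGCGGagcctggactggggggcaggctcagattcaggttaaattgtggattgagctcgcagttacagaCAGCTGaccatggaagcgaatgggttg

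The printed HACD2 window held AAGATGGC 3 times, starting 241, 184 and 118 bases before the gene start. That word was in 2.43% of the 35116 RefSeq promoter windows of this length and in no other member window. PA2G4 held the ZNF143 letters, read on the other strand as AATTGTAGT, starting 80 bases before its start, and 0.327% of all windows did. These letters were shortened after seeing the windows, so the match did not come from a preset search and nothing is read from that share. PDCL3 held the NRF1 letters as GCGCATGCG, 137 bases before its start, and the first TAPBPL window held them as CGCCTGCGC, 40 bases before it. These NRF1 letters were in 7.33% of all windows. CAGCTG was in 4 of the 8 member windows, those of HECTD3, UROD and both TAPBPL starts, which are 2 of the 5 loci. Of all windows, 16.4% held it. The GC box was in 6 of the 8, at 4 of the 5 loci, and in 44.1% of all. Windows of the same locus are not separate cases. CACGTG was in the first TAPBPL window alone among members and in 6.94% of all. HECTD3 was the only member with CCAAT, which 33.6% of all windows hold, and no member held CCGGAAG, which 9.94% hold. The matches did not overlap one another, although CAGCTG and the NRF1 letters abut in TAPBPL. So no word of the search occurred at all 5 loci. GC content ran from 53.6% in HECTD3 and UROD to 79.6% in the second HACD2 window. It was 67.9% in the first HACD2 window and in PA2G4, 63.9% in PDCL3, and 61.4% and 57.5% in the TAPBPL windows. Over all windows the median was 58.2% and the upper quartile 67.9%. The shares of all windows above were not matched for GC content. A match describes letters and is not a measured site.

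The WT peak at HACD2, chr3:123303949-123304656, was the strongest of the 6. The authors' fold was taken as the ChIP pileup at a summit over the background there, each with 1 added. At HACD2 the fold was 15.1, with a −log10 p of 41.6 and a −log10 q of 36.1. The summit at 123304530 was covered by 50 ChIP reads (exact Poisson 95% interval 37.1 to 65.9, counting error only). It ranked 57th of 634 WT peaks by fold, and first by fold among the 468 WT peaks without a bloto peak. By reads it came second among those 468.

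TAPBPL, PDCL3 and PA2G4 formed a close group below it. TAPBPL, at chr12:6560573-6561425, had a fold of 11.6, a −log10 p of 34.6 and 48 reads (35.4 to 63.6) at the summit 6561131. PDCL3, at chr2:101179156-101179683, had a fold of 10.7 and 49 reads (36.3 to 64.8) at 101179574. PA2G4, at chr12:56498148-56499072, had a fold of 10.5 and 48 reads (35.4 to 63.6) at 56498375. The −log10 p was 32.4 at both PDCL3 and PA2G4. The read counts of these promoters and of HACD2 lie within one another's intervals, so their order by reads is not resolved. By fold they ranked 100th (TAPBPL), 124th (PDCL3) and 128th (PA2G4).

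The divergent promoter of HECTD3 and UROD had weaker peaks, and there the name well-bound holds only in part. The stronger peak, chr1:45477653-45477931, had a fold of 8.67, a −log10 p of 24.3 and 40 reads (28.6 to 54.5) at 45477804. The weaker one, chr1:45476881-45477190, had a fold of 7.68, a −log10 p of 14.5 and 23 reads (14.6 to 34.5) at 45476990. They ranked 189th and 242nd by fold and 154th and 382nd by reads. The median WT peak had a fold of 6.71 and 26 reads, so the weaker peak lay above the median by fold and below it by reads.

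**Figure D1:**
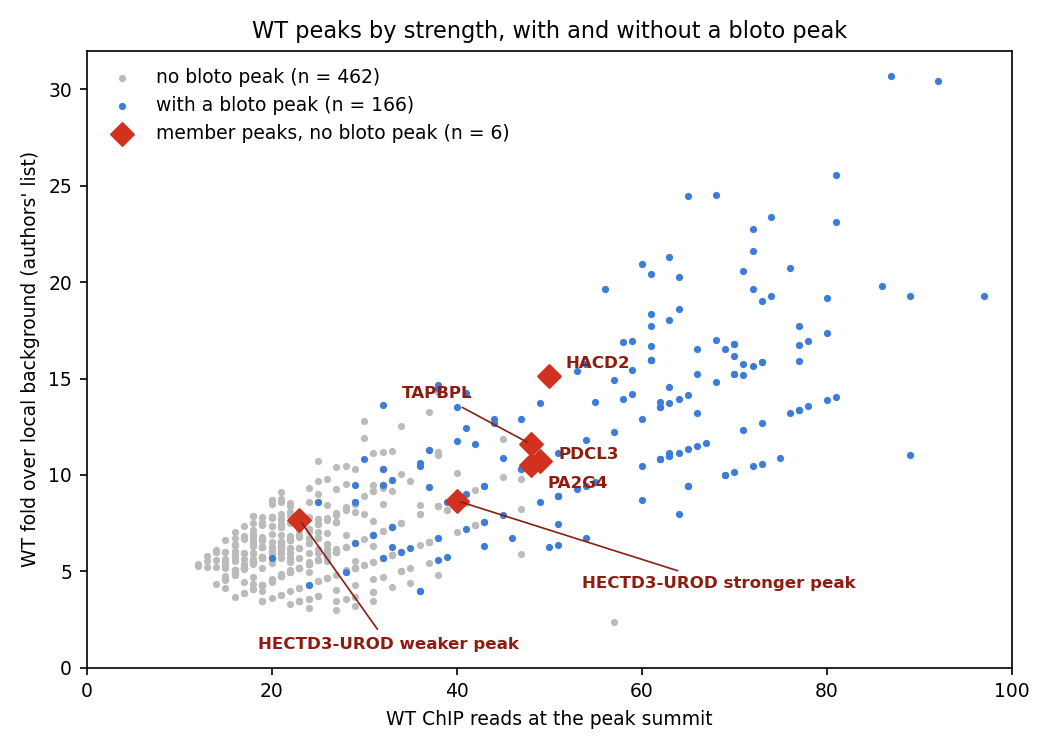
Each point is 1 of the 634 WT peaks, with the WT ChIP reads at its summit on the x axis and the authors' WT fold on the y axis. Blue points have a bloto peak, grey ones have none, and red diamonds are the 6 member peaks. HACD2, TAPBPL, PDCL3 and PA2G4 sit at 48 to 50 reads among mostly blue points, and the weaker HECTD3-UROD peak sits at 23 reads among mostly grey ones.

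TAPBPL, PDCL3 and PA2G4 were close in background as well as in reads. The background behind each fold was recovered in units of input reads under the summit, after the WT ChIP pileup had been scaled by 0.856 to its input. HACD2 had the lowest of the stronger promoters, 1.90, which equals 13 input reads in the surrounding 1 kb. TAPBPL had 2.63, or 18 input reads in 1 kb. PDCL3 and PA2G4 each had 3, the number of input reads at the summit itself. The stronger HECTD3-UROD peak had 3.07, or 21 input reads in 1 kb, and the weaker one 1.69, or 116 input reads in 10 kb. HACD2 thus had a higher fold than PDCL3 with 1 read more, over a lower background. All 6 backgrounds lay inside the range of the WT list, 1.08 to 20, whose median was 2.34.

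Missing from the bloto list is the common state of a WT peak. Of all 634 WT peaks, 468 had no bloto peak, which is 73.8%, and since the rule chose members on this contrast nothing is read from their 6 of 6. The share differed with strength: it was 32.9% among the 70 WT peaks with 40 to 59 summit reads, where 5 of the member peaks fall, and 97.1% among the 238 with 20 to 29 reads, where the weaker HECTD3-UROD peak falls. These shares count the member peaks too: 5 of the 23 uncalled peaks with 40 to 59 reads are members, chosen for lacking a call. Depth was similar in both libraries: 8.67 WT and 9.28 bloto ChIP reads per kb of genome, recovered from the lists, make the bloto library 1.07 times as deep. Similar depth did not mean equal signal. At called peaks of strength like the members, the bloto signal, less background and at equal depth, was at most 0.800 of WT. Outside those sets it could be higher, as at chr14:77787413-77787565, with 0.946 of WT, a WT fold of 4.99 and 28 WT reads.

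Each member peak was set beside the other WT peaks whose fold lay within a factor of 1.2 of its own. For HACD2, 61 of 64 such peaks had a bloto peak, which is 95.3% (exact Clopper-Pearson 95% interval 86.9% to 99.02%). The 3 others without one, chr19:38145522-38145823, chr12:124950906-124951210 and chr22:51221951-51222205, had 38, 37 and 30 reads, fewer than the 50 of HACD2. For TAPBPL the share was 55 of 82, or 67.1% (55.8% to 77.1%). For PDCL3 and for PA2G4 it was 50 of 90, or 55.6% (44.7% to 66.0%). The stronger HECTD3-UROD peak had 31 of 143, or 21.7% (15.2% to 29.3%), and the weaker one 20 of 177, or 11.3% (7.04% to 16.9%). At HACD2, peaks of like fold were nearly always called in bloto, while at the HECTD3-UROD pair they mostly were not. HACD2 had the highest fold of all WT peaks without a bloto peak. The 31 like-fold peaks above it therefore had a bloto peak by that rank alone, and its share partly restates the rank. These intervals treat peaks as independent and cover counting error only.

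Fold alone does not match reads: the like-fold peaks with a bloto peak had a median of 63 reads for HACD2 and 62 for TAPBPL. Matching on summit reads within the same factor gave 45 of 59 (76.3%, 63.4% to 86.4%) for HACD2 and 42 of 60 (70%, 56.8% to 81.2%) for TAPBPL and for PA2G4. It gave 42 of 57 (73.7%, 60.3% to 84.5%) for PDCL3, 35 of 83 (42.2%, 31.4% to 53.5%) for the stronger HECTD3-UROD peak, and 3 of 205 (1.46%, 0.303% to 4.22%) for the weaker. Matching on both fold and reads, a choice made after seeing the lists, left 15 of 15 for HACD2 (78.2% to 100%). Of these 15 peaks, 11 still had more reads than HACD2, and all 15 had a higher background. The same matching left 17 of 23 (73.9%, 51.6% to 89.8%) for TAPBPL and for PDCL3, and 20 of 27 (74.1%, 53.7% to 88.9%) for PA2G4. The stronger HECTD3-UROD peak had 9 of 33 (27.3%, 13.3% to 45.5%) and the weaker 1 of 79 (1.27%, 0.0320% to 6.85%). Under each of these 3 ways of matching, over 50% of the comparison peaks of HACD2, TAPBPL, PDCL3 and PA2G4 were called in bloto, and under 50% of those of either HECTD3-UROD peak. That holds for an overlap of at least 1 bp. With a reciprocal overlap of at least 50%, the like-fold shares were 45.1% for TAPBPL and 33.3% for PDCL3 and for PA2G4, against 75% for HACD2. With a fold within a factor of 1.5 the share fell to 44.96% for PDCL3 and 41.9% for PA2G4. The comparison sets of different members share peaks and are not separate evidence.

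**Figure D2:**
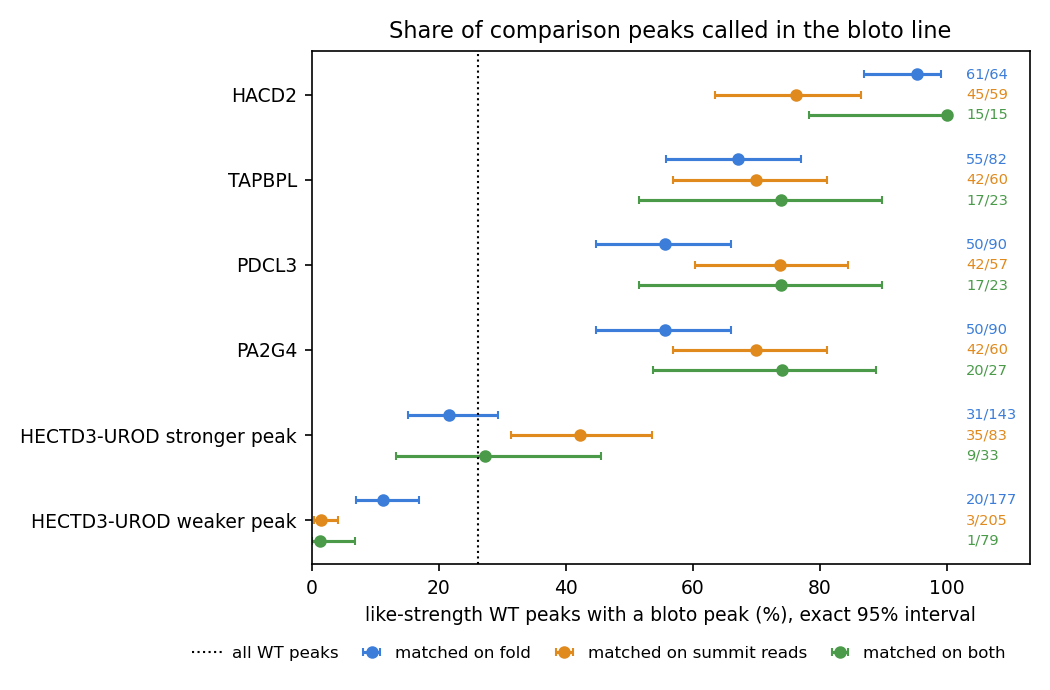
Points give the percentage of like-strength WT peaks that have a bloto peak, for each member peak and each way of matching, and bars are exact 95% intervals. The counts stand at the right, and the dotted line is the percentage over all WT peaks. HACD2 lies at 76.3% to 100% and the weaker HECTD3-UROD peak at 1.27% to 11.3%.

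PA2G4 and PDCL3 have WT counterparts with identical values. PA2G4 shared its fold of 10.5, 48 reads and background of 3 with 3 other WT peaks. At chr13:38923630-38924217 the bloto list had a peak, chr13:38923773-38924137, with a fold of 5.58 and 22 reads. At chr5:54603490-54603798 it had chr5:54603488-54603769, with a fold of 10.5 and 31 reads. At chr9:140353954-140354577 it had none. Sites alike in these WT values therefore differed in the bloto list, with PA2G4 among those not called. PDCL3 shared its fold, 49 reads and background with chr16:90038483-90039258, which had no bloto peak either.

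The called peaks next to each member by fold show what a bloto peak at such a site looked like. Around HACD2 these were chr20:36155952-36156697, with a WT fold of 15.2 and 71 WT reads against 50 bloto reads, and chr22:31885709-31886404, with a fold of 14.9 and 57 WT against 47 bloto reads. Around TAPBPL they were chr10:70939549-70940124, with 67 WT and 55 bloto reads, and chr2:86790122-86790590, with 42 and 24. Around PDCL3 they were chr1:179334775-179335249, with 62 and 32, and chr2:85645362-85645893, with 36 and 19. Both TAPBPL and PDCL3, at 48 and 49 WT reads, thus had a neighbour by fold with fewer WT reads that was called. For PA2G4 they were the chr13 site above and chr5:68665220-68665854, with 60 and 44. For the stronger HECTD3-UROD peak they were chr10:73843705-73844126, with 60 and 28, and chr1:35497063-35497641, with 29 and 25. For the weaker they were chr2:122659686-122660029, with 45 and 27, and chr17:42766951-42767378, with 43 and 20, each with more WT reads than its own 23. The bloto summits lay 0 to 34 bp from the WT summits at 10 of these 12 sites and 89 and 120 bp away at chr17:42766951 and chr1:35497063.

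**Figure D3:**
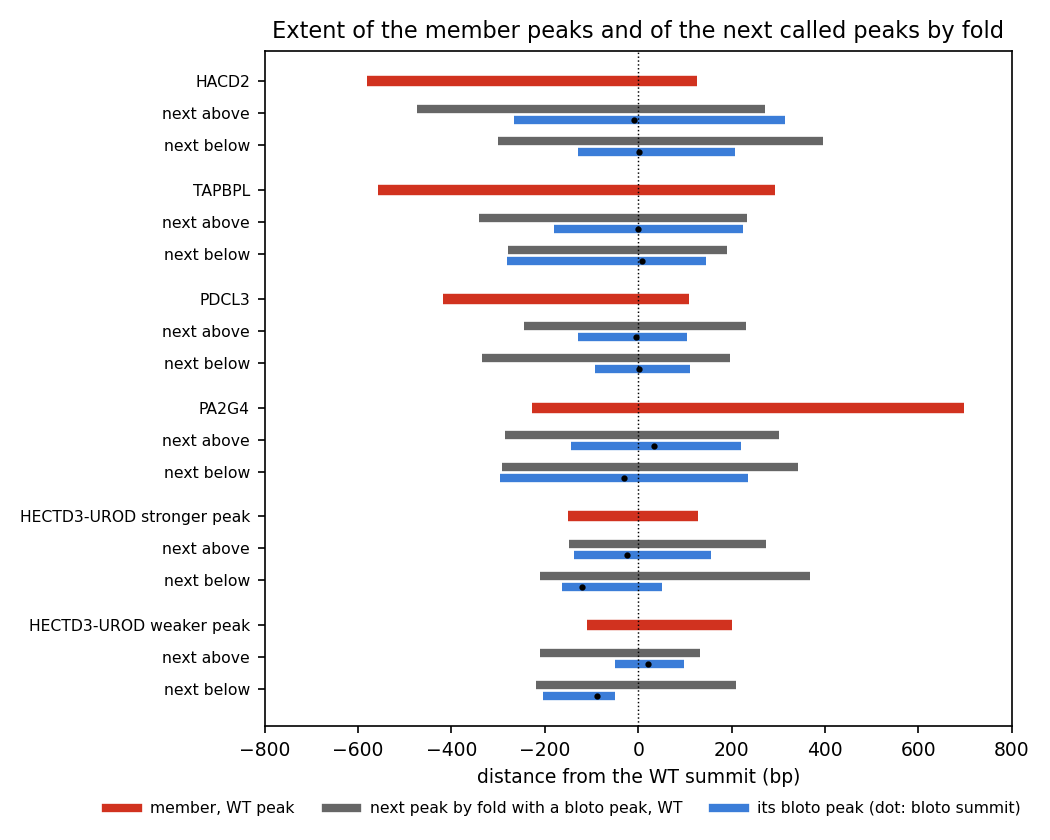
Bars span each peak from start to end, as distance in bp from the WT summit at 0. Red bars are the member WT peaks, grey bars the WT peaks next above and below by fold that have a bloto peak, and blue bars those bloto peaks, with a dot at the bloto summit. HACD2 and PDCL3 extend mostly to the left of their summit and PA2G4 mostly to the right.

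A missing call puts a limit on the bloto signal and does not show that binding was absent. If the bloto background were that of WT at equal depth, and the cutoff were the lowest −log10 p in the bloto list, 6.76, HACD2 would have needed 14 bloto reads and could hide at most 13. Less background, that is at most 0.208 of its WT signal. The same limit was 15 reads, or 0.244 of WT, at TAPBPL, and 16 reads at PDCL3 and PA2G4, or 0.252 and 0.257. It was 16 reads, or 0.312, at the stronger HECTD3-UROD peak and 12 reads, or 0.439, at the weaker. The limits ignore counting noise and any minimum peak width. The true bloto background at these sites was not measured, and with a background 2 times as high the limit at HACD2 would be 0.259.

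A ratio exists only for comparison peaks that were called in bloto, while the members were chosen for having no call, so the ratios below describe called sites and are no test of a difference. Of the peaks matched on fold and reads, all 15 of HACD2 were called, with bloto signals of 0.353 to 0.788 of WT and a median of 0.572. Those ratios would correspond to 20.4 reads at HACD2 at the lowest and 31.6 at the median. The 17 called of 23 matched to TAPBPL had 0.305 to 0.788, with a median of 0.503, and the other 6 had no call and no ratio. The 17 called of 23 matched to PDCL3 had 0.332 to 0.788, also with a median of 0.503. The 20 called of 27 matched to PA2G4 had 0.332 to 0.661, with a median of 0.489. At HECTD3-UROD most matched peaks were, like the members, not called: 24 of 33 for the stronger peak and 78 of 79 for the weaker. The 9 called ones of the stronger had 0.374 to 0.772, with a median of 0.451, and the 1 of the weaker had 0.633. Among these called peaks 0 ratios fell below the limit of the member they were matched to. The limit comes from the same cutoff that these peaks had to pass, so nothing is read from that 0. With matching on fold alone 1 did for TAPBPL, PDCL3, PA2G4 and the stronger HECTD3-UROD peak, and 9 of 20 did for the weaker, against 0 of 61 for HACD2. Comparison peaks had to pass the bloto cutoff to have a ratio at all, so the low end of these ranges is set partly by that cutoff.

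**Figure D4:**
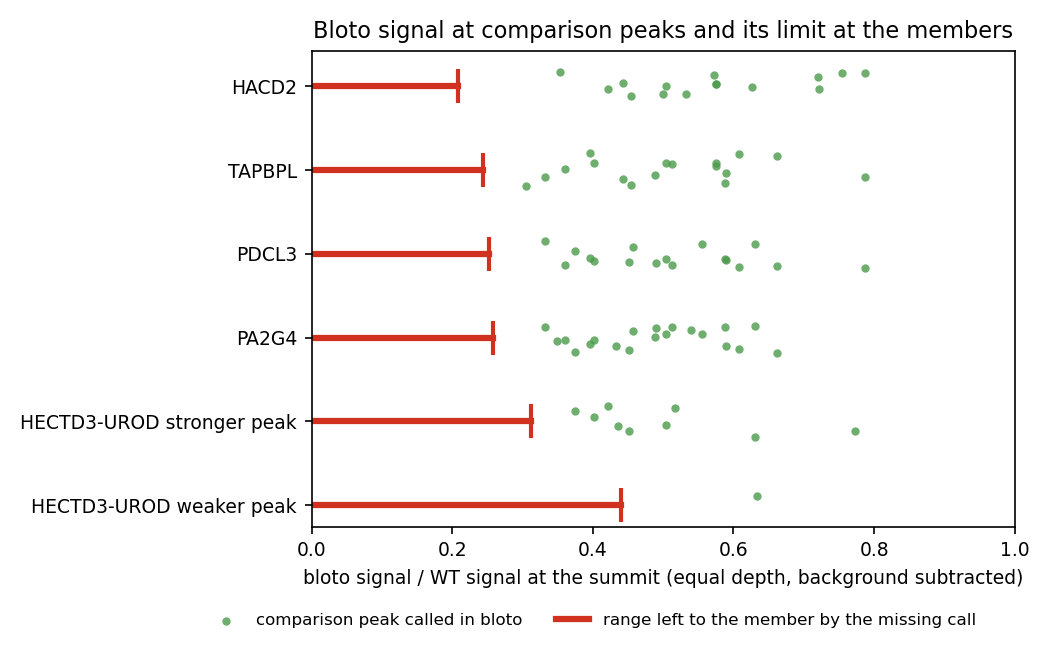
Green points are bloto over WT signal ratios, at equal depth and less background, at peaks matched to each member on fold and reads and called in bloto. Red bars run from 0 to the highest ratio a member could have without a call, given the WT background. The bar ends at 0.208 for HACD2, whose matched peaks start at 0.353, and at 0.439 for the weaker HECTD3-UROD peak, for which 1 of 79 matched peaks was called and has a ratio. The points had to pass the bloto cutoff that sets the bar ends, so a gap between them is no test.

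Width and shape were not part of the rule. HACD2 was 708 bp wide, TAPBPL 853, PDCL3 528 and PA2G4 925, against a median of 286.5 bp over all WT peaks and 619.5 bp over those with a bloto peak. PA2G4 was wider than all but 1 of its 20 matched peaks with a bloto peak and than all 7 without one. TAPBPL was wider than all but 2 of its 17, and than all 6 without one. PDCL3 went the other way: 11 of its 17 matched peaks with a bloto peak and 3 of 6 without one were wider. HACD2 was wider than all but 3 of its 15. The HECTD3-UROD peaks measured 279 and 310 bp, close to the median of all WT peaks. The stronger of them was narrower than each of its 9 matched peaks with a bloto peak, which measured 344 to 1145 bp, and than 21 of 24 without. For the weaker, 23 of 78 matched peaks without a bloto peak were wider.

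HACD2, PDCL3 and PA2G4 had their summit far from the middle of the peak. At HACD2 the peak reached 581 bp to the left of the summit and 126 bp to the right, as hg19 coordinates run, and at PDCL3 418 and 109 bp. PA2G4 had the opposite skew, 227 bp left and 697 bp right, and TAPBPL 558 and 294 bp. As a share of peak width, the summit lay 32.1% from the middle at HACD2, 29.2% at PDCL3, 25.5% at PA2G4 and 15.4% at TAPBPL. Among WT peaks of at least 500 bp, the median was 9.88% for the 120 with a bloto peak and 15.9% for the 30 others without one, members left out. The summit lay further off than at PA2G4 in 9 of those 120 and 10 of those 30. This measure was picked after seeing the peaks and was not tested. The lists give 1 summit per peak, so whether a wide peak holds a second site was not determined.

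The divergent promoter of HECTD3 and UROD held 1 of 45 pairs of neighbouring WT summits within 1000 bp, with 1 peak on chromosome 2 counted in 2 of the pairs. Its summits were 814 bp apart, near the upper end of the range of 260 to 827 bp, with 462 bp between the peaks. In 26 of the 45 pairs 1 peak had a bloto peak, in 19 neither had, and in 0 both had. Of the 28 pairs whose stronger peak had 40 reads or more, 4 had no bloto peak, and HECTD3-UROD was one of them.

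Most member genes have a start facing away from theirs nearby in RefSeq. In the GRCh38.p14 table, the starts of HECTD3 and UROD are 930 bases apart. HACD2 has the start of the long noncoding RNA gene MYLK-AS1 460 bases upstream on the other strand, TAPBPL that of CD27-AS1 at 132 bases and PA2G4 that of LOC105369782 at 140 bases. PDCL3 has none within 1000 bases. That makes 5 of the 6 member genes, at 4 of 5 loci, against 22.1% of the 15843 protein-coding genes with a promoter window. The interval of HECTD3 and UROD was given as a divergent promoter when the members were chosen, so its place in this count was known beforehand. HECTD3 and UROD also count each other, so these are not 6 independent cases, and the figure for all WT peaks was not computed.

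No bloto peak was called close to a member. The nearest bloto summit lay 196 kb from PA2G4, in the peak chr12:56694348-56694557, 1065 kb from the stronger HECTD3-UROD peak and 1202 kb from HACD2. It lay 5392 kb from PDCL3 and 8363 kb from TAPBPL. Near PA2G4, HACD2 and PDCL3 the next WT peak was also the next bloto site. Near TAPBPL the next WT peak, chr12:6961381-6961835, had a fold of 3.23 and 29 reads and no bloto peak. These distances were not set against those of other WT peaks. Widening each interval by 1000 bp on both sides found 0 of 5, which the distances above already imply.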

How the data were processed

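Each ChIP sample has 1 deposited peak list. The submitters' processing notes name cutadapt 1.4.1, CASAVA 1.8.2, MACS2, SAMtools, BWA and the build hg19. Other versions, the peak cutoff and which input served which ChIP are not stated by any source used here. The deposited columns hold a fold (ratio over local background), a −log10 p-value and a −log10 q-value per peak, a score of 10 times the latter cut to a whole number, and the summit offset. Folds of different lists were not compared in size.

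The members and lists were chosen with earlier results of these data known. Summit reads were recovered by taking the fold as (pileup + 1)/(background + 1) and the p-value as the upper Poisson tail of the pileup. This gave whole reads in 634 of 634 WT peaks (pileup scale 0.856) and 174 of 174 bloto peaks, within 0.0001 in −log10 p. Every background fell on a step of input reads (read extension 146 bp, windows of 1 and 10 kb) or on the lowest value of its list, taken as the genome-wide level. On simulated lists of 275 (WT settings) and 290 peaks (bloto settings) 100% of reads were recovered; those lists use the same formulas, so they check only the arithmetic. The bloto to WT signal ratio uses reads less background, divided by the depth ratio of 1.07. No test between conditions was made with 1 library each. The letters searched in promoters were shortened for ZNF143 after seeing the windows. All members were named, with the called peaks next above and below each by fold. How deeply the control was sequenced is unknown, since its list holds 1 peak. Promoters of related genes were not analysed here, since the gene table is on another build. Python 3.11.15, numpy 2.4.6, pandas 2.3.3, scipy 1.17.1 and matplotlib 3.10.9 were used.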

Additional observations from a re-analysis of the deposited data

How the results depend on the processing

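No paired analysis was possible because the lists hold 1 library of each kind, and no replicate could be left out. Of 67 recomputed values 28 stayed within the interval of the reported one or did not change. The other 39 moved, and the cause was not tested beyond how each setting is built. The limits of bloto signal have no interval, so any change in them counted as moved. The 28 and 39 are therefore not a measure of stability. The 5 intervals with a WT peak and the 0 with a bloto peak were the same with wider intervals and with a −log10 q of at least 5. These outcomes were fixed beforehand and are no check. The lowest −log10 q of a member peak was 9.83, and a stricter cutoff only removes bloto peaks. The nearest bloto summit to any member lay 196 kb away, and wider intervals cannot lose a WT peak. Shares of like-fold peaks with a bloto peak moved as follows. Reciprocal overlap of at least 50% gave 75% (HACD2), 45.1% (TAPBPL), 33.3% (PDCL3), 33.3% (PA2G4), 9.09% (stronger HECTD3-UROD peak) and 3.955% (weaker), and 83.4% of all WT peaks without a bloto peak. That last share was 69.7% with a gap of up to 1000 bp and 70.02% with a −log10 q of at least 5. A fold within 1.1 gave 6.90% (weaker), and within 1.5 gave 84.1% (HACD2) and 41.9% (PA2G4). Matching on −log10 p gave 100% (HACD2), 84.1% (TAPBPL), 72.7% (PDCL3 and PA2G4), 32.35% (stronger) and 6.29% (weaker). Matching on reads gave 76.3% (HACD2), 73.7% (PDCL3), 70% (PA2G4), 42.2% (stronger) and 1.46% (weaker). Matching on both, chosen after seeing the data, gave 100% (HACD2), 73.9% (PDCL3), 74.1% (PA2G4) and 1.27% (weaker). With a bloto background 2 times that of WT the limits were 0.259 (HACD2), 0.321 (TAPBPL), 0.339 (PDCL3), 0.347 (PA2G4), 0.419 (stronger) and 0.568 (weaker). With the cutoff at the median of the 10 lowest −log10 p they were 0.2275, 0.285, 0.293, 0.299, 0.364 and 0.484 in the same order. The lists hold no reads below the cutoff, so weaker bloto signal was not detectable.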

Other observations

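The WT peak with the most reads and no bloto peak is none of the members and was picked here after its values were seen. It lies at chr7:92219480-92219811, with 57 reads at the summit, a fold of 2.37, the lowest of the WT list, and a background of 20 input reads, the highest of the list. Members differ from it in background, which was at most 3.07.

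The 3 other paired sites whose stronger peak had 40 reads or more and where neither peak had a bloto counterpart were chr4:657474-657724 with chr4:657853-658159, chr5:133512630-133513123 with chr5:133513177-133513438, and chr6:37400857-37401206 with chr6:37401422-37401579. Their stronger peaks had 43, 47 and 47 reads, and the summits lay 423, 464 and 528 bp apart, closer than the 814 bp of HECTD3-UROD.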
